A study of Arabidopsis thaliana and Lotus japonicus with 44 samples.

Results

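Chloroplasts (plastids) and mitochondria keep small genomes of their own, and the transcripts read from these genomes in Arabidopsis thaliana roots are described here. Members were the genes with a plastid (ATCG) or mitochondrial (ATMG) identifier that had 10 or more counts in at least 1 of the 30 Arabidopsis libraries, with the transcripts of a gene summed. The rule was met by 28 of 133 plastid genes, of which 21 code for proteins, 5 for rRNAs and 2 for tRNAs. It was met by 8 of 31 mitochondrial genes, of which 5 code for proteins and 3 for rRNAs. These 36 members were tested together with 16504 nuclear genes that passed the same filter, 16540 genes in all.

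The study asked how a non-host of arbuscular mycorrhizal fungi (AMF) responds to the fungus when part of a symbiosis regulator is put into it. Lines 308 and 310 are independent transgenic lines in the Col-0 background that express IPD3-Min, the DNA-binding part of the Medicago truncatula transcription factor IPD3, under the constitutive UBIQUITIN10 promoter, and wild-type Col-0 was the reference. Roots were sampled at 6 weeks, 48 hours after germinated spores of Rhizophagus irregularis (+AMF) or sterile water (−AMF) had been added. Each library was made from the pooled roots of 5 seedlings of the same plate, so p-values measure the spread between such pools. The 8 groups were line 308 +AMF on low-nutrient medium (LN, 3 libraries), Col-0 +AMF on LN (5), line 310 +AMF (3), line 308 +AMF (4), Col-0 +AMF (4), line 310 −AMF (3), line 308 −AMF (4) and Col-0 −AMF (4), the last 6 on 1/2MS medium. LN medium held 0.5% of the phosphorus and 1% of the nitrogen and of the potassium of 1/2MS. No −AMF library and no line 310 library was on LN, so a medium effect is known here only with the fungus present.

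Organelle genes are read in long multi-gene transcripts that are cut, edited and spliced afterwards. The plastid genome codes for core subunits of the photosystems, the cytochrome b6f complex, ATP synthase, the NDH complex and Rubisco, and for its own RNA polymerase, ribosomal proteins, rRNAs and tRNAs. The mitochondrial genome codes for subunits of the respiratory chain, some ribosomal proteins and its own rRNAs. Nuclear mRNAs carry long stable poly-A tails. In plant organelles a poly-A tail is instead added to RNA that is about to be degraded. The libraries were selected for poly-A, so a count here is an organelle RNA fragment that entered such a library, and a difference in the amount of an organelle RNA cannot be told apart from a difference in the share of it that was captured. Fewer plastids or cells of a type and less RNA per cell cannot be told apart either.

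Sequence bears on this selection in another way, because a run of A inside a transcript can pair with an oligo-dT primer or bead. The stretches below are the 20 bases richest in A, in capitals, with 10 bases on each side, for the most abundant members and for 3 plastid protein genes, read 5′ to 3′ on the coding strand of the TAIR10.1 assembly of RefSeq.
rrn26, mitochondrion, bases 143680 to 143719, minus strand: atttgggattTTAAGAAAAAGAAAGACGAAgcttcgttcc
rrn18, mitochondrion, bases 127980 to 128019, minus strand: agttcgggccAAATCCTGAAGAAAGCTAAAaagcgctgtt
rrn16S, plastid, bases 101850 to 101889, plus strand: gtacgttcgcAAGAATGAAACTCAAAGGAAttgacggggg
rpoB, plastid, bases 25672 to 25711, minus strand: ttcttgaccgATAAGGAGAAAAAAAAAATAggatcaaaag
atpB, plastid, bases 54091 to 54130, minus strand: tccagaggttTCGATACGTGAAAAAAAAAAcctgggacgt
ycf1, plastid, bases 128210 to 128249, minus strand: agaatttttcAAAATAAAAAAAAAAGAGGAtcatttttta
The richest windows of rpoB and ycf1 held 15 and 16 A, those of rrn26 and rrn18 held 13 and 11, and those of atpB and rrn16S held 12 each. The longest run of A was 10 bases in rpoB and in atpB and 13 bases in ycf1, against 6 in rrn26 and 5 in rrn18. RpoB averaged 65.1 counts per library and atpB 8.9. Over the 88 plastid protein genes in the tables the longest run of A and the counts per kilobase had a Spearman correlation of −0.20, given as a description across genes that share libraries and transcripts.

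Most of the organelle counts came from rRNA. The rRNAs held 98.7% of the mitochondrial and 78.7% of the plastid counts. Mitochondrial protein genes with 1 exon were not analysed here, so these shares cover only part of the mitochondrial mRNAs. Over the 30 libraries rrn26, the large-subunit rRNA of the mitochondrial ribosome (ATMG00020), averaged 195 CPM per kb (CPM, the counts scaled to a common library total, per kilobase of exon), and rrn18, the small-subunit rRNA (ATMG01390), averaged 185 CPM per kb. The 5S rRNA gene rrn5 (ATMG01380) averaged 17.9 CPM per kb. The mitochondrial protein genes were far lower, at 5.20 CPM per kb for cox2, 2.60 for rps3, 2.12 for ATMG01275, 0.635 for nad7 and 0.233 for nad4. In the plastid the first copies of the small- and large-subunit rRNA genes, rrn16S (ATCG00920) and rrn23S (ATCG00950), averaged 18.8 and 12.9 CPM per kb. The tRNA genes trnI and trnA, which lie in the spacer between them, averaged 7.50 and 5.37 CPM per kb, and rrn4.5S, the small rRNA beside rrn23S, averaged 3.49 CPM per kb. Among the plastid protein genes rpl32, a ribosomal protein gene, had the highest level, 1.76 CPM per kb. That value rests on 0 to 12 counts per library over an exon of 159 bases. RpoB, the beta subunit of the plastid-encoded RNA polymerase, followed at 1.44 CPM per kb. The very long genes ycf1, rpoC2 and ycf2 were at the bottom, at 0.0832, 0.0744 and 0.0400 CPM per kb.

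**Figure D1:**
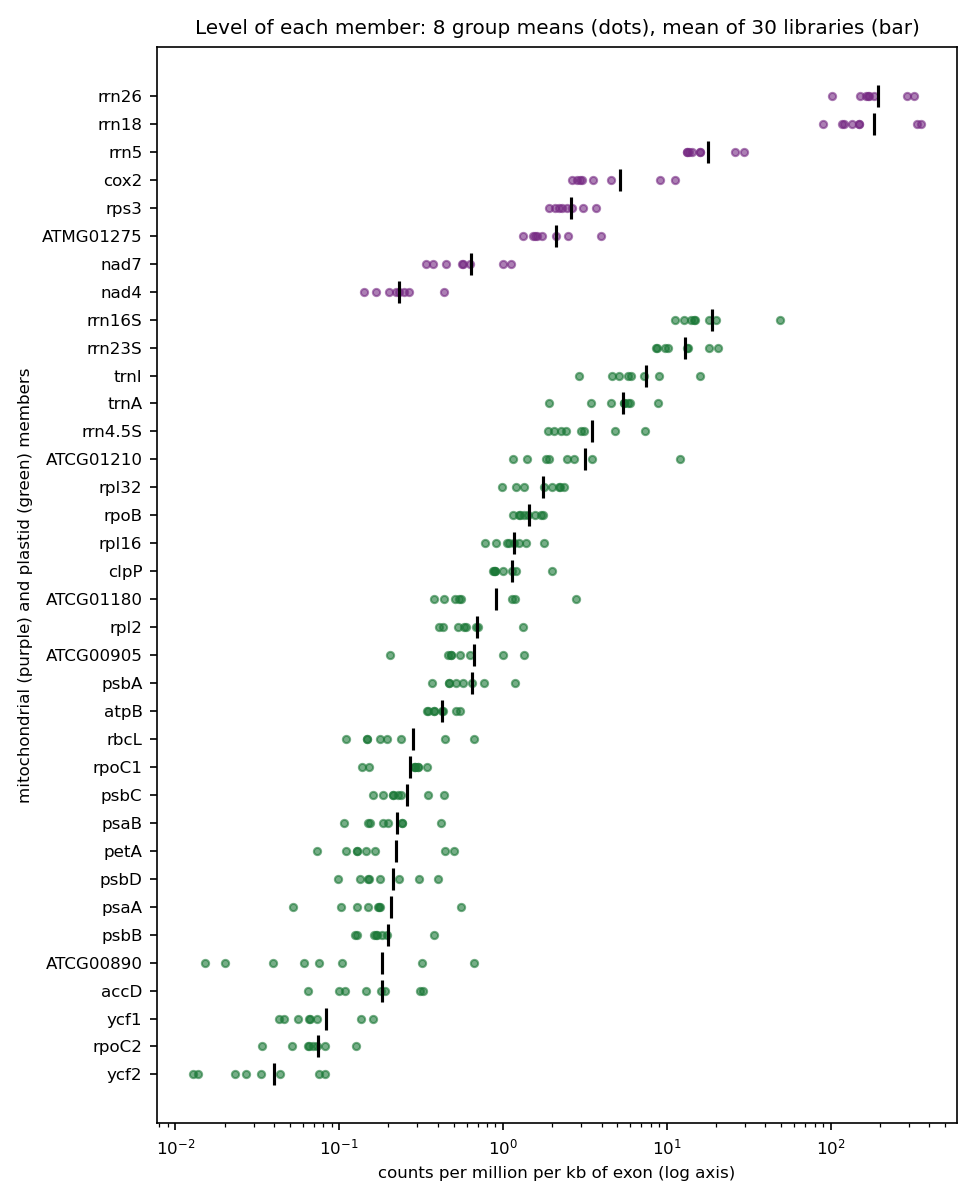
Levels of the 36 members in CPM per kb of exon on a log axis, with a dot for the mean of each of the 8 groups and a bar at the mean over the 30 libraries. The mitochondrial rRNAs rrn26 and rrn18, at 195 and 185 CPM per kb, lie about an order of magnitude above the highest plastid member, rrn16S at 18.8 CPM per kb.

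Library totals ran from 13125046 to 14790061 counts, so counts per library can be set side by side nearly as they stand. The library of line 308 on LN with replicate number 3 stood apart. It had the highest share of plastid counts, 0.0284%, and the highest share of mitochondrial counts, 0.222%, and it had 7184 CPM in nuclear RNAs that lack a poly-A tail. It and Col-0 LN replicates 1 and 3 were deposited under names of another form, whose meaning is not given in the sources used here. The results for line 308 on LN that moved most without it are given in both ways. Root markers were counted in every library, and so were some nuclear genes of photosynthesis that mark shoot tissue. Of 24 listed shoot genes only 14 passed the count filter, and 3 were at 0 in all libraries. CAB1 alone had group means of 198 to 1353 CPM, a large part of the summed level. The shoot list had summed levels of 433 to 685 CPM in line 308 and 896 to 1117 CPM in Col-0 on LN, and 1017 to 1574 CPM in line 308 +AMF and 2531 to 2888 CPM in Col-0 +AMF on 1/2MS.

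The threshold on counts shaped the plastid list. The members rpoC2 and ATCG00905 just entered with a highest count of 10 and petA and psbB with 11, while atpF, rpl20, petB and rpl22 stayed outside with a highest count of 9. Among mitochondrial genes ATMG00180 stayed outside with 9. The 81 plastid genes outside with any count held 2543 counts over all 30 libraries, and 24 plastid genes were at 0. The 11 mitochondrial genes outside with any count held 394 counts, and 12 were at 0. Of the 28 plastid members, 13 reached 10 counts only in a library on LN (psbD, psbC, psaA, rbcL, accD, petA, psbB, rpl16, ycf2, ATCG00890, ATCG00905, rrn4.5S and ycf1). A count of plastid members that rose on LN therefore leans towards rises, and the count among the other 15 is given beside it. All 8 mitochondrial members reached 10 counts on 1/2MS.

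The first comparison set LN against 1/2MS with the fungus present. In each genotype 5 of the 8 mitochondrial members rose. Of the 28 plastid members 14 rose in Col-0 and 5 in line 308. Among the 15 that also reached 10 counts on 1/2MS these numbers were 6 and 2. Over all genes 19.3% rose in Col-0 and 16.7% in line 308. For none of the 36 was the medium effect itself called as different between the genotypes. Mitochondrial genes took 0.155% ± 0.0175 of the counts in Col-0 on LN and 0.0785% ± 0.0164 in Col-0 on 1/2MS (SD, n = 5 and 4), a 1.98-fold difference with no overlap between the groups. In line 308 they took 0.171% ± 0.0454 on LN and 0.0833% ± 0.00683 on 1/2MS (SD, n = 3 and 4), 2.06-fold higher and again without overlap. By a two-sided exact permutation test these differences had p = 0.00794 in Col-0 and p = 0.0286 in line 308, each the smallest value that the number of libraries allows. Adjusted over the 20 share tests made, both were 0.114. Without line 308 LN replicate 3 the difference in line 308 was 0.0628 percentage points, against 0.0880 with it.

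**Figure D2:**
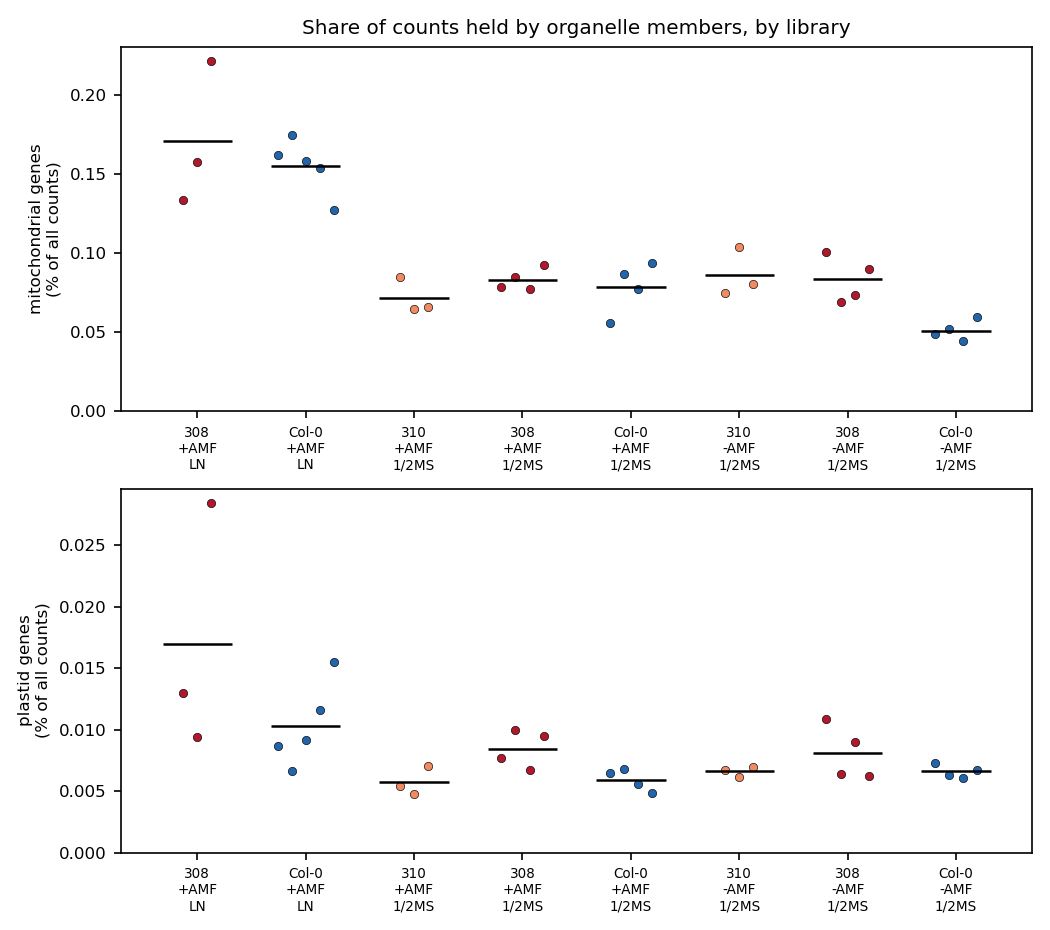
Percent of each library's counts from the mitochondrial members (top) and the plastid members (bottom), with a point for each of the 30 libraries and a bar at the mean of each of the 8 groups. Mitochondrial means are 0.171% and 0.155% in line 308 and Col-0 on LN, and 0.0511% in Col-0 −AMF on 1/2MS, and the plastid point at 0.0284% is line 308 LN replicate 3.

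Of the 8 mitochondrial members, 5 rose and none fell on LN in Col-0, where 35.8% of all tested genes were called, 19.3% as higher and 16.5% as lower (edgeR's quasi-likelihood test, Benjamini-Hochberg adjusted over all 16540 genes). In line 308 again 5 of 8 rose and none fell, where 31.7% of all genes were called and 16.7% as higher. The median log2 fold change of the 8 was 0.79 in Col-0 and 1.02 in line 308, against 0.0056 and 0.0126 over all genes.

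The small-subunit rRNA rrn18 had 7434, 9931 and 11881 counts in line 308 on LN, against 3752, 3969, 3718 and 4855 in line 308 +AMF on 1/2MS. In Col-0 it had 8633, 10421, 10070, 9296 and 6556 counts on LN, against 2137, 4035, 3346 and 3448 on 1/2MS. The groups did not overlap in either genotype. The log2 fold change was 1.25 ± 0.15 (SE; adjusted p = 0.000342) in line 308 and 1.49 ± 0.19 (adjusted p = 9.4e-05) in Col-0.

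The large-subunit rRNA rrn26 had 11176, 12350 and 19846 counts in line 308 on LN, against 7154, 7742, 7073 and 8067 on 1/2MS, a log2 fold change of 0.94 ± 0.18 (adjusted p = 0.00312), and 0.63 without LN replicate 3 (adjusted p = 0.00121). In Col-0 it had 12327, 15007, 12888, 12734 and 11113 counts on LN, against 5752, 8226, 7527 and 8773 on 1/2MS, a log2 fold change of 0.77 ± 0.14 (adjusted p = 0.00108). Every LN library lay above every +AMF library on 1/2MS. The smaller rise of rrn26 than of rrn18 showed in their ratio, which averaged 1.45 ± 0.165 over the 8 LN libraries and 2.03 ± 0.327 over the 22 libraries on 1/2MS (SD). These ranges overlapped, 1.24 to 1.70 on LN and 1.54 to 2.69 on 1/2MS. The third rRNA, rrn5, had 50, 51 and 48 counts in line 308 on LN, against 18, 37, 23 and 17 on 1/2MS, and rose there by 1.06 ± 0.26 on the log2 scale (adjusted p = 0.0125). In Col-0 its adjusted p was 0.0634, with 47, 46, 29, 44 and 46 counts on LN, against 16, 41, 29 and 19 on 1/2MS.

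Cox2, a core subunit of cytochrome c oxidase, had the largest rise among mitochondrial members in both genotypes. It had 90, 126 and 89 counts in line 308 on LN, against 34, 52, 26 and 45 on 1/2MS, a log2 fold change of 1.36 ± 0.23 (adjusted p = 0.00207). In Col-0 it had 98, 204, 138, 111 and 56 counts on LN, against 23, 42, 32 and 27 on 1/2MS, a log2 fold change of 1.98 ± 0.33 (adjusted p = 0.000679). No LN library was as low as any +AMF library on 1/2MS.

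ATMG01275 rose in Col-0, with 51, 79, 51, 51 and 34 counts on LN, against 20, 22, 16 and 15 on 1/2MS (log2 fold change 1.56 ± 0.25, adjusted p = 0.000509). In line 308 its groups overlapped, with 34, 47 and 24 counts on LN, against 14, 23, 22 and 28 on 1/2MS (adjusted p = 0.101). The ribosomal protein gene rps3 had 92, 82, 82, 98 and 69 counts in Col-0 on LN, against 51, 71, 62 and 63 on 1/2MS. Its log2 fold change of 0.48 ± 0.17 only just passed (adjusted p = 0.0456), and leaving out any Col-0 library other than LN replicate 5 ended the call, with adjusted p between 0.0576 and 0.120. Nad7, a subunit of complex I, had 17, 21 and 19 counts in line 308 on LN, against 5, 12, 10 and 11 on 1/2MS. Its log2 fold change of 0.99 ± 0.31 (adjusted p = 0.0337) was lost in 6 of 7 fits that left out 1 library, with adjusted p up to 0.0860. Nad4, another complex I subunit, had 0 to 13 counts per library and passed in neither genotype (adjusted p = 0.256 in line 308 and 0.457 in Col-0). None of the 8 medium effects was called as different between line 308 and Col-0, where 5.5% of all genes were. The lowest adjusted p for that difference among mitochondrial members was 0.197, for ATMG01275.

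**Figure D3:**
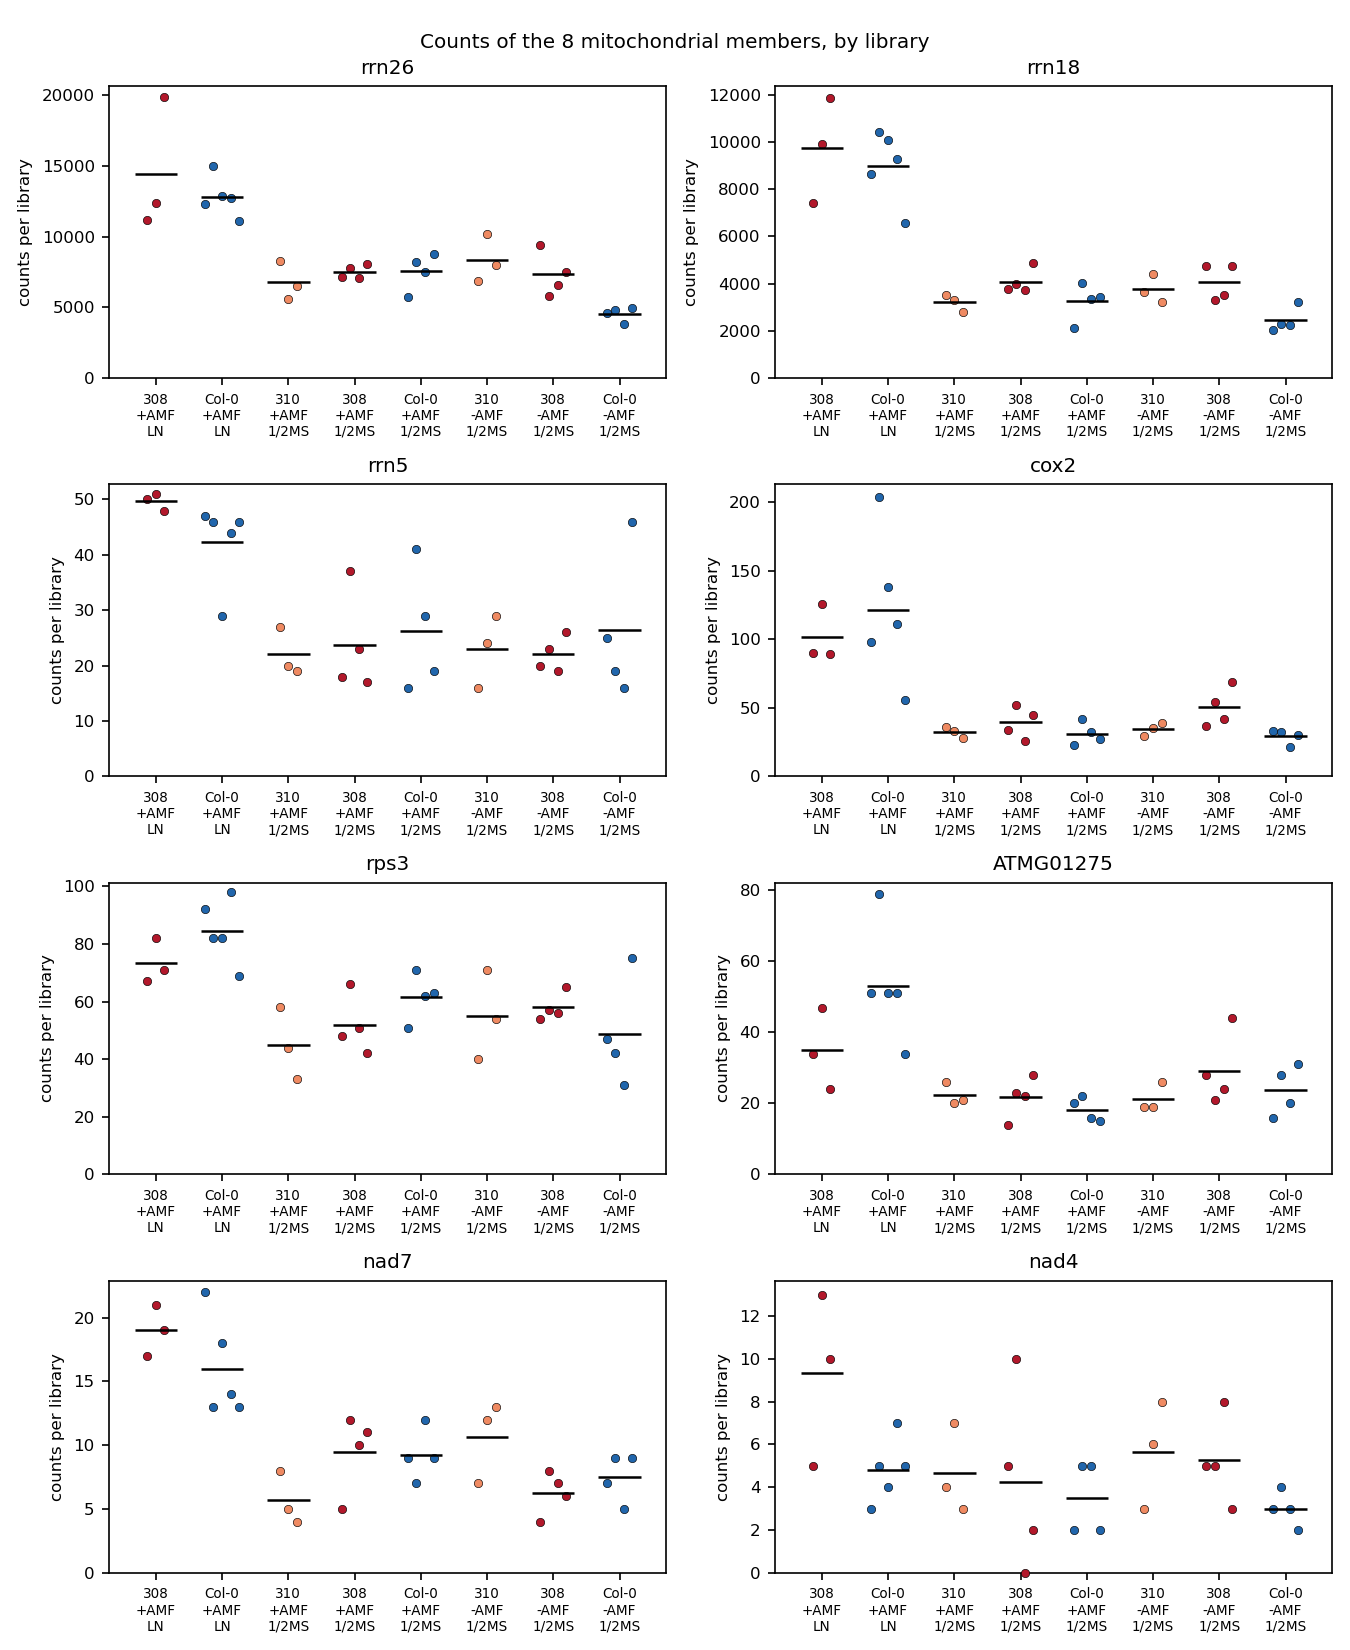
Counts per library of the 8 mitochondrial members, a panel for each gene, with a point for each library in the 8 groups and a bar at the group mean. For rrn26, rrn18 and cox2 all 8 LN libraries lie above the +AMF libraries on 1/2MS of the same genotype, and for nad4 the groups overlap at 0 to 13 counts.

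Parts of the mitochondrial genome have copies in the nucleus, in a large insertion on chromosome 2. No nuclear match of 100 bases or more was found for rrn26, rrn18 or rrn5 in the assembly used. Stretches that match the nucleus at 99% identity or more cover 94.2% of the exon sequence of nad7, 94.0% of nad4, 66.3% of ATMG01275 and 9.93% of rps3, and reads from these cannot be placed with certainty. These 4 genes held 0.758% of the mitochondrial member counts. For cox2 the longest chromosome 2 match was 306 bases with 11 mismatches, an identity of 96.4%, so that reads which span a mismatch can be placed. Of these 11 mismatches 10 lie within 100 bases, and the rest of the match was nearly identical. Those 100 bases are shown with the differing bases in capitals, both on the plus strand.
cox2, mitochondrion, bases 6464 to 6563: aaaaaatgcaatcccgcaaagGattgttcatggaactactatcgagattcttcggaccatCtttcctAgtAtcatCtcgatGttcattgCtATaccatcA
chromosome 2 copy, bases 3347151 to 3347250: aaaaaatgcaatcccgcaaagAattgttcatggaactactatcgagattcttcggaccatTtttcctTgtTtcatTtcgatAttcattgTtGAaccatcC
Annotated nuclear genes of this insertion moved in the same direction as the mitochondrial members. Of 20 such genes 15 were tested, and 12 rose in Col-0 and 7 in line 308 on LN (6 without line 308 LN replicate 3), with a summed level of 104 to 157 CPM in the LN libraries and 52.7 to 99.4 CPM in those on 1/2MS. The part of misplaced reads in this was not tested.

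Plastid genes took 0.0103% ± 0.00340 of the counts in Col-0 on LN and 0.00592% ± 0.000909 in Col-0 +AMF on 1/2MS (SD, n = 5 and 4). The ranges overlapped, and the exact permutation test gave p = 0.0238, or 0.114 adjusted over the 20 share tests. In line 308 the shares were 0.0169% ± 0.0101 on LN and 0.00846% ± 0.00153 on 1/2MS (SD, n = 3 and 4; exact p = 0.0857). The difference was 0.00846 percentage points, and 0.00272 without line 308 LN replicate 3 (exact p = 0.267).

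In Col-0 14 of the 28 plastid members rose and none fell on LN, where 19.3% of all genes were called as higher. In line 308 5 rose and 1 fell, where 16.7% were called as higher. Since 13 members were counted only because they were high in an LN library, these numbers are no evidence of a rise on their own. Among the 15 members that also reached 10 counts on 1/2MS, 6 rose in Col-0, 40.0% of them, with a median log2 fold change of 0.89. In line 308 2 of these 15 rose, 13.3%, which is near the share over all genes, and 1 fell, with a median of 0.31. Most of these genes had fewer than 20 counts per library. At mean counts of 2 to 10, a simulated 4-fold change was recovered in 28% of genes in the Col-0 design and 34% in that of line 308, so a member that did not pass is not shown to be unchanged.

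The photosystem genes that passed did so in Col-0 only, but the difference between the genotypes was not itself called. PsaA and psaB code for the reaction centre proteins of photosystem I. PsaA reached 10 counts only on LN, so its rise is no evidence on its own. PsaA had 12, 13, 21, 19 and 22 counts in Col-0 on LN, against 1, 7, 3 and 5 on 1/2MS, and its log2 fold change was 2.10 ± 0.41 (adjusted p = 0.00194). PsaB had 19, 14, 8, 10 and 12 counts in Col-0 on LN, against 4, 5, 6 and 4 on 1/2MS (log2 fold change 1.41 ± 0.37, adjusted p = 0.0104). The Col-0 groups did not overlap for either gene. In line 308 psaA had 3, 7 and 7 counts on LN, against 2, 4, 2 and 5 on 1/2MS, and psaB 6, 4 and 4 counts on LN, against 6, 8, 6 and 3 on 1/2MS. The medium effect on psaB was 1.69 ± 0.56 (SE) lower in line 308 than in Col-0 on the log2 scale, which did not pass the test (adjusted p = 0.0834). PsbA, the D1 protein of photosystem II, had 21, 13, 15, 21 and 16 counts in Col-0 on LN, against 9, 8, 8 and 6 on 1/2MS, and rose by 1.16 ± 0.28 (adjusted p = 0.00670). In line 308 it had 8, 17 and 10 counts on LN, against 6, 10, 8 and 4 on 1/2MS (adjusted p = 0.199). The photosystem II genes psbB, psbC and psbD passed in neither genotype.

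RbcL, the large subunit of the carbon-fixing enzyme Rubisco, had 12, 11, 17, 18 and 8 counts in Col-0 on LN, against 9, 2, 1 and 7 on 1/2MS. In line 308 it had 6, 6 and 15 counts on LN, against 3, 4, 2 and 0 on 1/2MS. It passed in both genotypes with small margins (adjusted p = 0.0379 in Col-0 and 0.0461 in line 308), and leaving out 1 library ended the call in 6 of 9 and in 5 of 7 fits, with adjusted p up to 0.104 in Col-0 and 0.197 in line 308. The cytochrome f gene petA had 8, 5, 8, 7 and 5 counts in Col-0 on LN, against 2, 2, 4 and 1 on 1/2MS (1.53 ± 0.45, adjusted p = 0.0189). Without Col-0 +AMF replicate 2 on 1/2MS its adjusted p was 0.0516. AtpB, the beta subunit of ATP synthase, had 6, 15, 11, 10 and 12 counts in Col-0 on LN, against 10, 7, 12 and 7 on 1/2MS, and passed in neither genotype (adjusted p = 0.536 in Col-0 and 0.570 in line 308). ATCG00890, whose exons lie within the NDH subunit gene ndhB of RefSeq, had 11, 5, 11, 14 and 12 counts in Col-0 on LN, against 2, 3, 2 and 0 on 1/2MS (adjusted p = 0.00294). In line 308 it had 6, 6 and 4 counts on LN, against 2, 0, 2 and 0 on 1/2MS (adjusted p = 0.0396), and the call was lost in 5 of 7 fits without 1 library, with adjusted p up to 0.0972. RbcL, petA and ATCG00890 became members only through their counts on LN, so these rises are no evidence on their own.

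ClpP, the catalytic subunit of the plastid Clp protease, rose in Col-0 by 1.16 ± 0.29 (adjusted p = 0.00886), with 12, 17, 13, 23 and 16 counts on LN, against 9, 7, 5 and 8 on 1/2MS. Rpl2, a ribosomal protein gene, had 12, 9, 11, 23 and 20 counts in Col-0 on LN, against 6, 6, 6 and 1 on 1/2MS (log2 fold change 1.66 ± 0.44, adjusted p = 0.0118). In line 308 neither passed, with 14, 6 and 10 counts of clpP on LN, against 10, 10, 4 and 6 on 1/2MS, and 7, 5 and 9 counts of rpl2 on LN, against 5, 10, 5 and 7 on 1/2MS. Ycf2 passed in both genotypes, at 5 to 13 counts in the LN libraries and at most 3 in the +AMF libraries of these genotypes on 1/2MS. Ycf1, another of the very long genes, rose in Col-0 by 1.85 ± 0.52 (adjusted p = 0.0155), with 17, 10, 4, 13 and 15 counts on LN, against 3, 6, 1 and 3 on 1/2MS. ATCG00905 had 4, 5, 2, 10 and 3 counts in Col-0 on LN, against 0, 2, 1 and 0 on 1/2MS (adjusted p = 0.0271, up to 0.0684 and no longer called without 1 of 4 of the libraries). Ycf2, ycf1 and ATCG00905 became members only through their counts on LN, so their rises are no evidence on their own either. The fatty acid synthesis gene accD and the ribosomal protein genes rpl16 and rpl32 passed in neither genotype.

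RpoB stood out among the plastid protein genes by its counts. It had 37 to 95 counts in every library, with a median of 64, when no other plastid protein gene exceeded 23 counts. It had 37, 64 and 58 counts in line 308 and 57, 47, 50, 55 and 68 in Col-0 on LN, against 62, 57, 60 and 51 in line 308 +AMF and 72, 80, 62 and 67 in Col-0 +AMF on 1/2MS. It passed in none of the 10 comparisons. RpoC1 and rpoC2, the other polymerase subunits among the members, had at most 15 and 10 counts and also passed in neither genotype on LN.

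**Figure D4:**
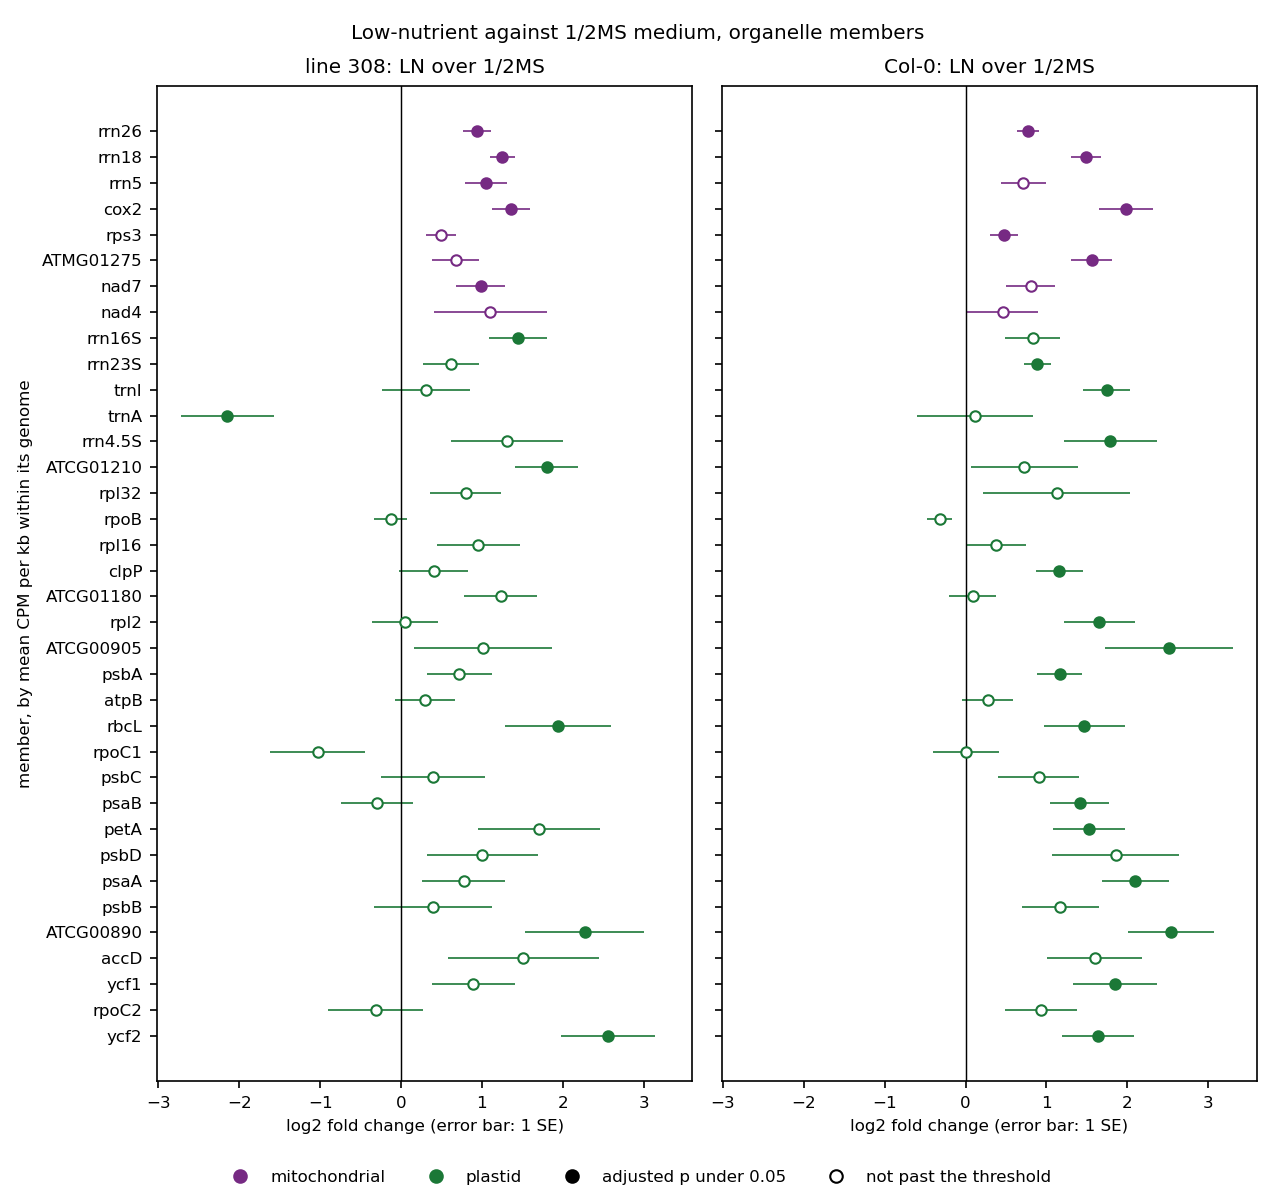
Log2 fold change of LN over 1/2MS (+AMF libraries) with ±1 SE for the 36 members in line 308 (left) and Col-0 (right), filled where the adjusted p was below 0.05. In Col-0 rpoB lies below 0, at −0.32, and in line 308 trnA, at −2.15, lies farthest below 0.

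The plastid rRNA operon lies in an inverted repeat, so each of its genes is present in a pair of copies. The annotated copies of rrn16S (ATCG00920 and ATCG01210, 1491 bases) and of rrn23S (ATCG00950 and ATCG01180, 2810 bases) were identical, so that a read cannot be assigned to one by its sequence. All 4 were nonetheless counted, very unequally, and the single copies are uncertain as measurements. The second copy of rrn16S took 17.6 to 22.6% of the rrn16S counts in line 308 and 4.62 to 13.1% in Col-0 on LN, and 12.9 to 17.3% in line 308 +AMF and 6.16 to 12.2% in Col-0 +AMF on 1/2MS. Without the fungus it took 10.6 to 18.9% in line 308, 3.24 to 12.4% in line 310 and 11.7 to 16.8% in Col-0. For rrn23S the second copy took 10.3 to 12.6% in line 308 and 2.33 to 3.78% in Col-0 on LN, and 6.77 to 10.5% in line 308 +AMF and 4.49 to 5.57% in Col-0 +AMF on 1/2MS. With AMF or on LN the ranges of line 308 lay wholly above those of Col-0 for both rRNAs, and without the fungus they overlapped. Among other repeated members the second copies of ycf2, ATCG00890 and trnI were at 0. Over all libraries those of rpl2, rrn4.5S and trnA held 13, 3 and 2 counts, against 241, 152 and 168 on the first copies.

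**Figure D5:**
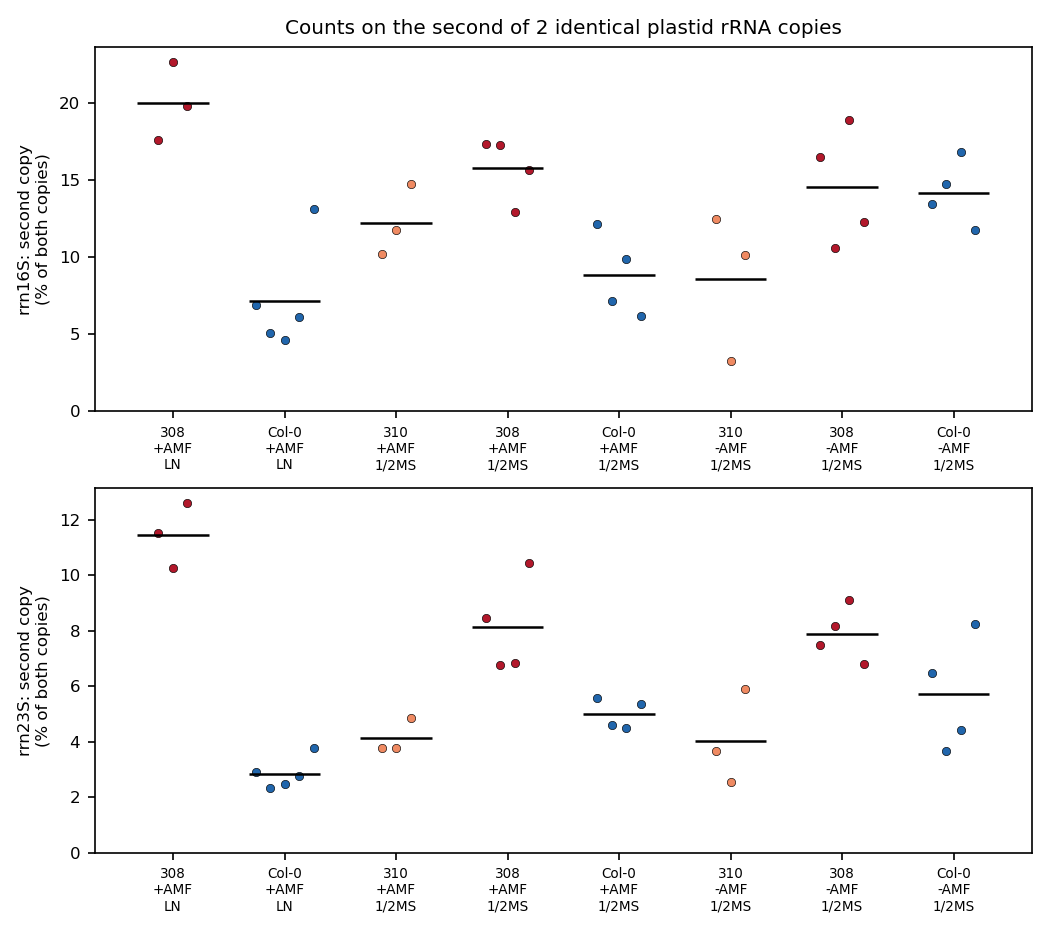
Percent of the rrn16S and rrn23S counts that were assigned to the second, identical copy, with a point for each library in the 8 groups. On LN line 308 lies at 17.6 to 22.6% for rrn16S and 10.3 to 12.6% for rrn23S, above Col-0 at 4.62 to 13.1% and 2.33 to 3.78%.

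On LN the first copy of rrn16S had 833, 540 and 1747 counts in line 308, against 330, 455, 249 and 497 on 1/2MS, and rose by 1.45 ± 0.36 on the log2 scale (adjusted p = 0.0128). Without line 308 LN replicate 3 the value was 0.83 (adjusted p = 0.0494). Its second copy, ATCG01210, had 178, 158 and 430 counts in line 308 on LN, against 69, 95, 37 and 92 on 1/2MS (1.80 ± 0.39, adjusted p = 0.00647), and 1.18 without LN replicate 3 (adjusted p = 0.0210). In Col-0 the first copy had 283, 224, 330, 414 and 828 counts on LN, against 318, 274, 220 and 137 on 1/2MS, which overlapped (adjusted p = 0.0769). With both copies summed, an alternative added after seeing the data, rrn16S rose in line 308 by 1.51 ± 0.36 (adjusted p = 0.0104) and did not pass in Col-0 (adjusted p = 0.100). For rrn23S the order was the other way. Its first copy had 537, 503, 712, 875 and 866 counts in Col-0 on LN, against 373, 476, 362 and 319 on 1/2MS, without overlap (log2 fold change 0.89 ± 0.17, adjusted p = 0.00143). In line 308 it had 584, 411 and 1442 counts on LN, against 466, 633, 464 and 557 on 1/2MS (adjusted p = 0.204). The small rRNA rrn4.5S had 6, 8, 5, 10 and 24 counts in Col-0 on LN, against 4, 2, 5 and 1 on 1/2MS (1.79 ± 0.58, adjusted p = 0.0302), and leaving out any of 3 libraries, LN replicate 5 among them, ended its call with adjusted p up to 0.0809. This gene, too, became a member only through its counts on LN. Summed copies of rrn23S gave 0.86 ± 0.17 in Col-0 (adjusted p = 0.00185) and adjusted p = 0.172 in line 308. The spacer tRNA gene trnI rose in Col-0, with 15, 11, 16, 18 and 20 counts on LN, against 5, 5, 4 and 5 on 1/2MS (log2 fold change 1.74 ± 0.29, adjusted p = 0.000678). In line 308 it had 4, 8 and 16 counts on LN, against 4, 12, 10 and 4 on 1/2MS. TrnA was the only organelle member that fell on LN, in line 308, with 2, 1 and 3 counts on LN, against 11, 9, 13 and 4 on 1/2MS (log2 fold change −2.15 ± 0.57, adjusted p = 0.0171). Without line 308 LN replicate 2 its log2 fold change was −1.83 and its adjusted p 0.0545. Both tRNA genes are counted over exons of 73 and 74 bases, and reads from the unspliced precursor of the rRNA operon would overlap them too.

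Several nuclear lists moved beside the organelle members on LN. Over all tested genes, 16.5% fell in Col-0 and 2478 of 16540 fell in line 308. Of 24 listed shoot photosynthesis markers 14 were tested, and 12 fell in Col-0 and 12 in line 308. Among them were CAB1 at −1.64 and LHCA4 at −1.43 on the log2 scale in Col-0. In Col-0 the nuclear antenna genes thus fell in the comparison in which plastid psaB and psbA rose. PsaA rose there too, but it became a member only through its counts on LN. In line 308 none of these plastid genes was called. Of 6 root markers 3 rose in each genotype, against 19.3% of all genes in Col-0 and 16.7% in line 308. Of 12 tested genes for organelle transcription (polymerases, sigma factors and polymerase-associated proteins), 4 fell in Col-0. Among those were SIGF at −0.92 and PTAC2 at −0.84. In line 308 4 fell, among them PTAC2 at −0.56, and 1 rose, MGP3 (AT1G68990) at 0.81. Of 6 tested genes for organelle RNA decay and polyadenylation, 3 fell in Col-0, with the endonuclease gene CSP41A at −1.13, and 1 fell in line 308. Of 4 tested nuclear RNAs without a poly-A tail, 3 fell in Col-0, with AT7SL-1 at −1.14, and 2 rose in line 308, with AT3G41768 at 0.77. Without line 308 LN replicate 3, in line 308 10 shoot markers, 2 genes for organelle transcription and 1 for decay fell, 1 for transcription rose, no root marker passed, and 2 RNAs without a poly-A tail rose. The part of tissue makeup or of poly-A selection in the organelle results was not tested.

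The second comparison set +AMF against −AMF on 1/2MS, and few organelle transcripts moved. In Col-0 only rrn26 passed among the 36 members, where 0.871% of all genes were called and 0.369% as higher. It had 5752, 8226, 7527 and 8773 counts in Col-0 +AMF, against 4580, 4822, 3851 and 4961 in Col-0 −AMF, with no overlap and a log2 fold change of 0.75 ± 0.15 (adjusted p = 0.0460). The call was lost in 6 of 8 fits that left out 1 library (all but +AMF replicate 1 and −AMF replicate 4), with adjusted p of 0.0980 to 0.150 and log2 fold changes of 0.64 to 0.87. Rrn18 had 2137, 4035, 3346 and 3448 counts in Col-0 +AMF, against 2051, 2275, 2259 and 3227 in Col-0 −AMF, and did not pass (0.41 ± 0.20, adjusted p = 0.313). The mitochondrial share was 0.0785% ± 0.0164 in Col-0 +AMF and 0.0511% ± 0.00631 in Col-0 −AMF (SD, n = 4 each), 1.54-fold higher with overlapping ranges (exact permutation p = 0.0571, adjusted 0.163).

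In line 308 no member was called, where 0.0121% of all genes were. There 3 of 28 plastid members and no mitochondrial member had an unadjusted p below 0.05, as did 1432 of all 16540 genes. Rrn26 had 7154, 7742, 7073 and 8067 counts in line 308 +AMF, against 9411, 5808, 6566 and 7485 in line 308 −AMF (log2 fold change 0.04 ± 0.13). In line 310 no gene of the 16540 was called (545 had an unadjusted p below 0.05, among them 2 plastid members and no mitochondrial member). There rrn26 had 8252, 5551 and 6483 counts in line 310 +AMF, against 6882, 10152 and 7986 in line 310 −AMF (log2 fold change −0.28 ± 0.18). With 3 libraries against 3, no share test in line 310 could go below an exact p of 0.1. The AMF effect on rrn26 was lower in line 308 than in Col-0 by 0.72 ± 0.21 (unadjusted p = 0.00306, adjusted p = 0.425) and lower in line 310 than in Col-0 by 1.03 ± 0.26 (unadjusted p = 0.00120, adjusted p = 0.474), neither of which passed. For neither line was any gene called as responding to AMF differently from Col-0.

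The third comparison set each transgenic line against Col-0 in the same condition. Without the fungus rrn26 was higher in line 308 than in Col-0, with 9411, 5808, 6566 and 7485 counts in line 308, against 4580, 4822, 3851 and 4961 in Col-0 (log2 fold change 0.68 ± 0.14, adjusted p = 0.0399), where 1.92% of all genes were called and 0.846% as higher. Leaving out 1 library ended this call in 5 of 8 fits (without line 308 −AMF replicates 3 or 4 or Col-0 −AMF replicates 1, 2 or 3), with adjusted p of 0.0728 to 0.120. Rrn18 had 4731, 3325, 3500 and 4728 counts in line 308, against 2051, 2275, 2259 and 3227 in Col-0, also without overlap, and just missed the threshold (0.73 ± 0.16, adjusted p = 0.0542). In line 310 −AMF no member was called, where 0.0121% of all genes were. Rrn26 had 6882, 10152 and 7986 counts there, again above every Col-0 −AMF library (0.84 ± 0.14, adjusted p = 0.159). The mitochondrial share was 1.63-fold higher in line 308 −AMF and 1.69-fold higher in line 310 −AMF than in Col-0 −AMF, at 0.0835% ± 0.0147 and 0.0863% ± 0.0155, against 0.0511% ± 0.00631 (SD, n = 4, 3 and 4). Neither line overlapped with Col-0 (exact permutation p = 0.0286 each, adjusted 0.114 each). The AMF comparison in Col-0 and both of these share the 4 Col-0 −AMF libraries, which had the 4 lowest counts of rrn26 among the 30 libraries, so they are not separate evidence.

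With the fungus on 1/2MS no mitochondrial member differed between line 308 and Col-0, where 6.66% of all genes were called and 2.58% as higher, and rrn26 had a log2 fold change of −0.03 ± 0.13. The 2 plastid members that passed were the second copies of the rRNA genes. ATCG01180 had 43, 46, 34 and 65 counts in line 308, against 22, 23, 17 and 18 in Col-0 (1.21 ± 0.23, adjusted p = 0.0108), and ATCG01210 had 69, 95, 37 and 92 counts in line 308, against 44, 21, 24 and 9 in Col-0 (1.57 ± 0.39, adjusted p = 0.0364). The call of ATCG01210 was lost in 6 of 8 fits without 1 library, with adjusted p up to 0.101. With the copies summed, rrn23S rose by 0.51 ± 0.13 (adjusted p = 0.0377) and rrn16S did not pass (adjusted p = 0.0943). In line 310 +AMF no member was called, where 0.0302% of all genes were. No member had an unadjusted p below 0.05 there, against 1601 of all 16540 genes.

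On LN 8.64% of all genes were called between line 308 and Col-0, 3.49% as higher and 5.15% as lower in line 308, and 2 plastid members were higher, 1 was lower and no mitochondrial member passed. The second copies were again the ones that were higher. ATCG01180 had 76, 47 and 208 counts in line 308, against 16, 12, 18, 25 and 34 in Col-0, without overlap (2.38 ± 0.46, adjusted p = 0.0163). ATCG01210 had 178, 158 and 430 counts in line 308, against 21, 12, 16, 27 and 125 in Col-0, without overlap (2.66 ± 0.62, adjusted p = 0.0295). Without line 308 LN replicate 3 the calls ended, at 1.52 (adjusted p = 0.0655) for ATCG01180 and 2.05 (adjusted p = 0.132) for ATCG01210. ATCG01210 was also lost without any 1 of 5 other libraries. With both copies summed neither rRNA passed (adjusted p = 0.0538 for rrn16S and 0.542 for rrn23S). PsaA, which reached 10 counts only in the Col-0 LN libraries and so became a member through the group in which it is high, was lower, with 3, 7 and 7 counts in line 308, against 12, 13, 21, 19 and 22 in Col-0 (−1.61 ± 0.37, adjusted p = 0.0293), and lost the call in 5 of 8 fits without 1 library, with adjusted p up to 0.0913.

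In the same comparisons of line 308 with Col-0, the shoot photosynthesis markers fell, 13 of 14 with the fungus on 1/2MS and 10 of 14 on LN, and 3 of 4 nuclear RNAs without a poly-A tail rose on LN. Without line 308 LN replicate 3 these were 5 of 14 and 1 of 4 on LN. SIG4, a sigma factor of the plastid polymerase, had 0, 1, 0 and 0 counts in line 308 +AMF, against 6, 18, 8 and 26 in Col-0 +AMF (adjusted p = 0.00662). On LN it had 1, 1 and 1 counts in line 308, against 3, 3, 9, 8 and 6 in Col-0 (adjusted p = 0.0428), a call that was lost without line 308 LN replicate 3, among others.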

How the data were processed

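RNA was measured in pooled roots by strand-specific, poly-A enriched sequencing. Per the study's methods the authors separated reads by genome with BBSplit and counted them on the Araport 11 annotation with featureCounts (version 2.0.1 per the submitters' processing notes). The deposited values are raw counts per transcript, which were summed here per gene. The notes also name HISAT2, with no role given. Reads that fit more than 1 reference genome (plant, fungus or construct) were discarded. How reads that fit several places within the Arabidopsis genome were counted is not given in the sources used here. Every contrast was fitted with the libraries it compares, by edgeR 4.0.16 (R 4.3.3) using TMM factors and the quasi-likelihood test, on genes with 10 or more counts in at least 1 of the 30 libraries, with Benjamini-Hochberg adjustment over 16540 genes and a threshold of 0.05. Shares of library counts were compared by two-sided exact permutation tests (numpy 2.4.6), and the Spearman correlation was computed with scipy 1.17.1. Nuclear matches were found with blastn 2.17.0. RefSeq genes matched 123 of 133 plastid and 29 of 31 mitochondrial genes by start and end. Mitochondrial protein genes with 1 exon were not analysed here.

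Members and gene lists were chosen with earlier results of these data known. Named were the 5 highest members per genome in CPM per kb, the highest of each class, and called members with a mean of 10 or more counts. All rRNAs and up to 3 called genes per nuclear list were named too. Outside these rules, nad4, ycf2 and ycf1 were named after their values were seen. Also named outside them were psbB, psbC, psbD, rpoC1, rpoC2, rpl16, rpl32, accD and ATCG00905, and genes near the count threshold. In simulated data with 200 changed genes among 16540, the medium contrast in Col-0 recovered 96% of 4-fold and 62% of 2-fold changes at a mean of 10 or more counts, and 28% and 0% at 2 to 10 counts. The alternatives were DESeq2 1.42.0, a likelihood ratio test with a common dispersion (the estimate the study names), scaling by nuclear counts, no filter, a replicate block, file name form as a covariate, leaving out each library, and summed rRNA copies.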

Additional observations from a re-analysis of the deposited data

Results flagged for a closer look

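Of 130 groups of 4 or 5 libraries examined for a library far from the others, 8 had one, where chance gives about 6.5. Among mitochondrial members, rrn5 had 29 counts in Col-0 LN replicate 3, with 44 in the nearest other library. Among plastid rRNAs, rrn4.5S had 24 counts in Col-0 LN replicate 5, with 10 in the nearest, and 2 in line 308 −AMF replicate 4, with 4 in the nearest. The second 16S copy ATCG01210 had 125 counts in Col-0 LN replicate 5, with 27 in the nearest, the same library that had the most counts of the first copy in Col-0. TrnI had 4 counts in Col-0 +AMF replicate 3, where the other libraries had 5, and rpl2 had 1 in Col-0 +AMF replicate 4, where the others had 6. In line 308 −AMF replicate 3 psbA had 7 counts, with 5 in the nearest, and ATCG00890 had 1, where the others had 0.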

How the results depend on the processing

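No called result reversed its direction under the alternatives run; differences in share that did not pass changed sign without 1 library in 6 of the 20 tests. Scaling by nuclear counts moved none of the 26 counts of called members by over 1.5 times, nor did file name form as a covariate on LN for 8 counts, but with the covariate 6 of 33 gene calls were lost (rbcL, petA and rps3 in Col-0 and rbcL, ATCG00890 and nad7 in line 308, LN against 1/2MS). A likelihood ratio test with a common dispersion, the estimate the study names, leaves out gene-wise spread and called more members: for LN against 1/2MS in line 308, 11 plastid and 8 mitochondrial; for AMF in Col-0, 1 plastid; for line 308 against Col-0, 2 plastid and 3 mitochondrial without AMF, 4 plastid with AMF and 7 plastid on LN; for line 310 without AMF, 2 mitochondrial; for a different response of line 308, 3 plastid to LN and 1 of each genome to AMF, and for line 310 to AMF 1 of each genome. DESeq2 called 2 mitochondrial members in line 308 without AMF, 4 plastid in line 308 with AMF and 1 mitochondrial in line 310 without AMF, and no filter gave 2 mitochondrial members in line 308 without AMF. Summing the rRNA copies left 1 plastid call in line 308 with AMF and 1 on LN. The share of all genes called is not given here for any alternative, the replicate block and left-out libraries below included. These counts therefore do not set the members apart from other genes.

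Replicate numbers did not pair the libraries, since in no contrast was every correlation of same-numbered libraries over 0.1 (−0.317 to 0.248). With a replicate block, mitochondrial calls were 0 for AMF in Col-0, 2 in line 308 without AMF and 1 in line 308 on LN, and plastid calls were 5 in line 308 on LN and 1 for a different response to LN; 31 of the 37 gene calls were kept.

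With 1 library left out, called plastid members numbered 0 to 1 for AMF in Col-0, 0 to 1 in line 308 without AMF, 1 to 2 with AMF, 0 to 5 on LN (0 without line 308 LN replicate 3, 5 without Col-0 LN replicate 5) and 0 to 1 for a different response to LN. Called mitochondrial members numbered 0 to 1 for AMF in Col-0, 0 to 2 in line 308 without AMF and 0 to 1 on LN. Differences in share, in percentage points, were 0.00308 to 0.00530 for plastid genes on LN in Col-0 (exact permutation p = 0.0286 to 0.0714) and 0.00203 to 0.00313 in line 308 with AMF (0.0286 to 0.0857). For mitochondrial genes they were 0.0628 to 0.107 on LN in line 308 (0.0667 to 0.1, where none of the 7 designs can reach 0.05), 0.0224 to 0.0349 for AMF in Col-0 (0.0286 to 0.0857), 0.0266 to 0.0371 in line 308 without AMF (0.0286 to 0.0571) and 0.0264 to 0.0411 in line 310 without AMF (0.0667 to 0.1).

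Without the gene with the most counts the plastid difference on LN was 0.00220 in Col-0 (exact permutation p = 0.0714) and 0.00655 in line 308 (p = 0.0286), and the mitochondrial difference in line 310 without AMF was 0.00900 (p = 0.0857). Without rRNA genes the plastid difference for AMF in Col-0 was −0.000165 (exact permutation p = 0.0286), and the mitochondrial differences without AMF were 0.000281 in line 308 (p = 0.0857) and 9.51e-05 in line 310 (p = 0.543). On LN the mitochondrial difference without rRNA was 0.00108 in Col-0 (exact permutation p = 0.0159) and 0.000772 in line 308 (p = 0.0286). Depth limits most plastid protein genes, at fewer than 25 counts per library apart from rpoB. The cause of these changes was not tested.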
